A study of Mus musculus with 36 samples.

Results

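The genes described here are 10 parts of the cytokine receptor pathway of T cells: the receptor chains Il2rb, Il2rg and Il21r, the signal transducers Stat3, Stat5a and Stat5b, and the feedback inhibitors Socs1, Socs2, Socs3 and Cish. The rule that defines them uses gene names and no measured value, and they are 10 of the 56748 genes in the table. RNA-seq had been performed on mouse CD4+ T cells that lacked heterochromatin protein 1α (HP1α, gene Cbx5) or HP1γ (gene Cbx3), the chromatin readers of methylated histone H3, and on the wild-type (WT) cells of each line. There were 12 groups: WT and knock-out (KO) cells of both lines, each as naive T cells, as conventional T cells (Tconv) and as Tconv exposed to regulatory T cells (Treg). Every group had 3 libraries except HP1γ KO Tconv with Treg, where replicate 3 was left out, as the study did for its base composition, exonic share and coverage bias, and 2 remained.

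The HP1α line carried a germline deletion made by crossing floxed mice with a CMV-cre deleter, so that every tissue of the donor lacked the gene, and WT littermates served as controls. In the HP1γ line the floxed gene was removed by Cd4-cre, that is in T cells, and the controls were floxed littermates without Cre. Both lines were on a mixed 129/Sv and C57BL/6 background. Naive CD4+ cells came from the spleen by negative selection. Tconv were naive cells of the same genotypes that had been injected into irradiated C57BL/6 hosts together with marrow from C57BL/6 and from semi-allogeneic B6D2F1 donors, and that were sorted back from the spleen through their Vβ6 receptor, which recognises a superantigen of the allogeneic graft. In the groups with Treg, the hosts had also received WT Treg expanded in culture with IL-2 and TGF-β, so the Treg were WT in every group. In such bulk samples, fewer cells with a transcript and less of it per cell cannot be told apart.

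Cytokines such as IL-2, IL-7, IL-15 and IL-21 signal through receptors that share the common γ chain encoded by Il2rg. IL-2 and IL-15 also need the β chain Il2rb, and IL-21 needs Il21r. The receptors activate JAK kinases, which phosphorylate STAT5 (after IL-2, IL-7 or IL-15) or STAT3 (after IL-21, IL-6 or IL-10), and the STATs enter the nucleus and bind a palindromic DNA motif. Among their targets are the genes of the SOCS family, whose products dampen the same receptors. Cish and Socs2 are classical targets of STAT5 in lymphocytes, Socs3 of STAT3, and Socs1, the strongest JAK inhibitor, of interferon signalling as well as of STAT5. Treg express high levels of the IL-2 receptor, and their use of IL-2 is one known way in which they restrain Tconv.

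The members lie on 7 chromosomes of the GRCm39 build, with positions from the GENCODE vM39 annotation. Cish is at chr9:107173225-107179983 on the plus strand and its canonical transcript has 3 exons. Socs2 is at chr10:95219523-95253929 on the minus strand, Socs1 at chr16:10600104-10603875 on the minus strand and Socs3 at chr11:117856905-117860898 on the minus strand. Stat5b (chr11:100671556-100741589, minus strand), Stat5a (chr11:100750177-100776065, plus strand) and Stat3 (chr11:100775924-100830450, minus strand) are neighbours, and the ends of Stat5a and Stat3 overlap. The receptor chains are at chr15:78363456-78395566 (Il2rb, minus strand), chrX:100307984-100311861 (Il2rg, minus strand) and chr7:125202601-125232756 (Il21r, plus strand). The kit did not mark strand, and 7 members overlap at least 1 gene on the opposite strand, among them Cish and Socs2 with 3 long non-coding RNA genes each, so reads in the overlaps could belong to either gene. Of the stretches of 31 bases in Stat5a transcripts, 9.79% also occur in Stat5b transcripts, which leaves part of the reads of this pair shared out by estimation.

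Since Cish and Socs2 were the members called with against without Treg in the HP1α line, the windows of 300 bases before each annotated start of a protein-coding transcript were searched for the STAT motif TTCNNNGAA, which reads the same on both strands. The search was made with the results known. The motif was present in 3 of the 10 members, at Cish, Socs2 and Socs3, against 17.1% of 21580 protein-coding genes, counting a gene when any of its windows held it. That share was not matched for the number of windows of a gene, which was 2 for Cish, 11 for Socs2 and 5 for Socs3. Of all windows, 8.3% held the motif. A window before the Cish transcript that starts at position 107174111 held 4 motifs, and it was the single window with 4 of the 67387 searched. Socs2 had 11 windows, 1 with 2 motifs and 1 with a single motif, and 1.1% of genes had a window with 2 or more. The stretches that hold them are shown 5′ to 3′ because 2 of the 3 genes that hold them, Cish and Socs2, were called in that comparison, with the motif in capitals and 2 flanking bases on either side. They are sequences of GRCm39. Both Cish stretches also lie in the first exon of a longer annotated Cish transcript. The Socs2 pair and the Socs3 motif also lie within the annotated span of their genes, after the start of longer transcripts.

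Cish, chr9:107173856-107173879, plus strand, from 255 to 232 bases before the start: ttTTCCTGGAAagTTCTTGGAAat
Cish, chr9:107173961-107173990, plus strand, from 150 to 121 bases before the start: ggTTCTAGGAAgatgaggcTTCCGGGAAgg
Socs2, chr10:95252764-95252787, minus strand, from 77 to 54 bases before the start at 95252710: gaTTCCTGGAAagTTCCTGGAAag
Socs2, chr10:95254149-95254161, minus strand, from 232 to 220 bases before the start at 95253929: gaTTCCAGGAAaa
Socs3, chr11:117860336-117860348, minus strand, from 225 to 213 bases before the start at 117860123: ccTTCTTAGAAgg

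Cish and Socs2 thus share a pair of motifs set 2 bases apart, and the Socs3 window held a single motif. No window of Socs1, of the receptor chains or of the STAT genes held these letters, which says nothing of other sites of those genes. A match is a description of the sequence, and binding was not measured in these libraries.

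Levels are given as CPM, that is, estimated counts scaled to library size with TMM factors over the 35 libraries. The total counts per library lay between 37029519 and 63042245, and the member values between 0.0746 and 2124 CPM. Tests were made with the quasi-likelihood method of edgeR, and p-values were adjusted by Benjamini-Hochberg over every gene in the test. "Called" stands for an adjusted p under 0.05 together with a log2 fold change of more than 1 in size. Errors of log2 fold changes are standard errors (SE). The T cell markers Cd3d, Cd3e, Cd3g, Cd4 and Lck were present in every group. Of the targeted genes, Cbx5 was between 9.20 and 19.7 CPM in HP1α KO libraries and between 18.5 and 61.8 in HP1α WT libraries, and Cbx3 was between 60.5 and 80.8 CPM in HP1γ KO libraries and between 79.1 and 199.5 in HP1γ WT libraries. Within each of the 6 pairs of groups, every KO value lay below the WT values. The drop was partial at the level of whole-gene counts, and reads of the deleted part were not counted apart. In naive cells the study reports, with western blots, that HP1α was absent from HP1α KO cells and that HP1γ was almost completely lost in HP1γ KO cells. In the comparisons of KO with WT cells, Cbx5 differed by -1.42 ± 0.25 (SE) on the log2 scale in HP1α Tconv with Treg (edgeR adjusted p = 0.086) and Cbx3 by -0.53 ± 0.15 in HP1γ Tconv with Treg (adjusted p = 0.26).

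In the passage from naive cells to Tconv, the β chain of the IL-2 receptor and the feedback genes Cish and Socs2 rose, while the shared γ chain and the STATs differed by less than the fold threshold. Il2rb was between 17.5 and 26.6 CPM in the 12 naive libraries and between 832 and 1751 CPM in the 12 Tconv libraries without Treg. Its log2 fold change was 5.53 ± 0.15 in HP1α WT, 5.20 ± 0.09 in HP1α KO, 6.14 ± 0.24 in HP1γ WT and 5.73 ± 0.16 in HP1γ KO cells, with adjusted p from edgeR's test of 1.06e-07, 3.74e-07, 3.76e-06 and 1.4e-07. The naive and Tconv libraries did not overlap for Il2rb in any of these pairs of groups, nor did those of 51.9% to 57.7% of all genes.

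Cish, which binds activated receptors and competes with STAT5 for them, was between 9.91 and 20.4 CPM in naive cells. In Tconv without Treg it was 366, 477 and 395 CPM in the HP1α WT libraries, 409.7, 396 and 417 in HP1α KO, 721, 654 and 393 in HP1γ WT, and 375, 299 and 275 in HP1γ KO. The rise was 25.1-fold in HP1α WT cells (log2 fold change 4.65 ± 0.15, edgeR adjusted p = 2.35e-07) and 23.2-fold in HP1α KO cells (4.53 ± 0.12, edgeR adjusted p = 1e-06). It was 46.8-fold in HP1γ WT cells (5.55 ± 0.31, edgeR adjusted p = 1.61e-05) and 17.8-fold in HP1γ KO cells (4.15 ± 0.16, edgeR adjusted p = 6.97e-07).

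Socs2, an adaptor of a ubiquitin ligase best known for restraining growth hormone signalling, was close to absent in naive cells, with 3 to 24 counts per library, or 0.0746 to 0.438 CPM. In Tconv without Treg it was between 59.5 and 277 CPM. The log2 fold changes were 8.64 ± 0.17 in HP1α WT and 8.32 ± 0.30 in HP1γ KO cells, with adjusted p in edgeR's test of 2.94e-08 and 6.97e-07. The gene was called in HP1α KO and HP1γ WT cells as well. There it entered the test only through its Tconv libraries, so no fold is given and the call is no support for a rise. The size of each fold rests on few naive counts.

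Socs3, which blocks receptors of the gp130 family, and Socs1 moved much less. Socs3 was between 130.2 and 295 CPM in naive cells and between 165 and 574 CPM in Tconv. It was called in HP1γ WT cells alone, at 1.27 ± 0.23 (edgeR adjusted p = 0.00433), while its values in the other comparisons were 0.78 ± 0.19 in HP1α WT, 0.24 ± 0.20 in HP1α KO and 0.74 ± 0.24 in HP1γ KO, and the difference between these was not tested. Socs1 was between 50.8 and 113 CPM in naive cells and between 87.2 and 142 CPM in Tconv, with log2 fold changes from 0.10 ± 0.13 (HP1γ KO) to 0.80 ± 0.19 (HP1γ WT).

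Among the remaining receptor chains and STATs, no log2 fold change between naive cells and Tconv exceeded 1 in size, although Il21r, Stat5a and Stat5b passed the p threshold in HP1α WT, HP1α KO and HP1γ KO cells. The log2 fold change of Il21r in Tconv was -0.44 ± 0.10, -0.47 ± 0.12, -0.38 ± 0.18 and -0.77 ± 0.12 in HP1α WT, HP1α KO, HP1γ WT and HP1γ KO cells, with edgeR adjusted p of 0.00932, 0.016, 0.152 and 0.00103. Stat5b was between 155 and 345 CPM in naive cells and between 190.1 and 242 CPM in Tconv, and Stat5a between 45.8 and 127 CPM and between 54.2 and 75.1 CPM. Stat3 had the smallest differences, from -0.03 ± 0.13 (HP1γ KO) to 0.10 ± 0.08 (HP1α WT). Il2rg, the most abundant member, was 1205 to 1231 CPM in HP1α WT naive cells and 1832 to 2032 CPM in HP1α WT Tconv. This was a difference of 0.68 ± 0.08 (edgeR adjusted p = 3.27e-04), beside 0.49 ± 0.08 in HP1α KO cells (edgeR adjusted p = 0.00237). In the HP1γ line its groups overlapped, with 0.03 ± 0.24 in WT and 0.11 ± 0.11 in KO cells (edgeR adjusted p = 0.943 and 0.469). Replicate 2 of HP1γ WT naive cells stood apart from the other replicates of its group, with 45.8 CPM of Stat5a against 94.4 and 96.9, 155 CPM of Stat5b against 279 and 289, and 2124 CPM of Il2rg against 1334 and 1318. In that comparison the number of members called was 4 with any single library left out.

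**Figure D1:**
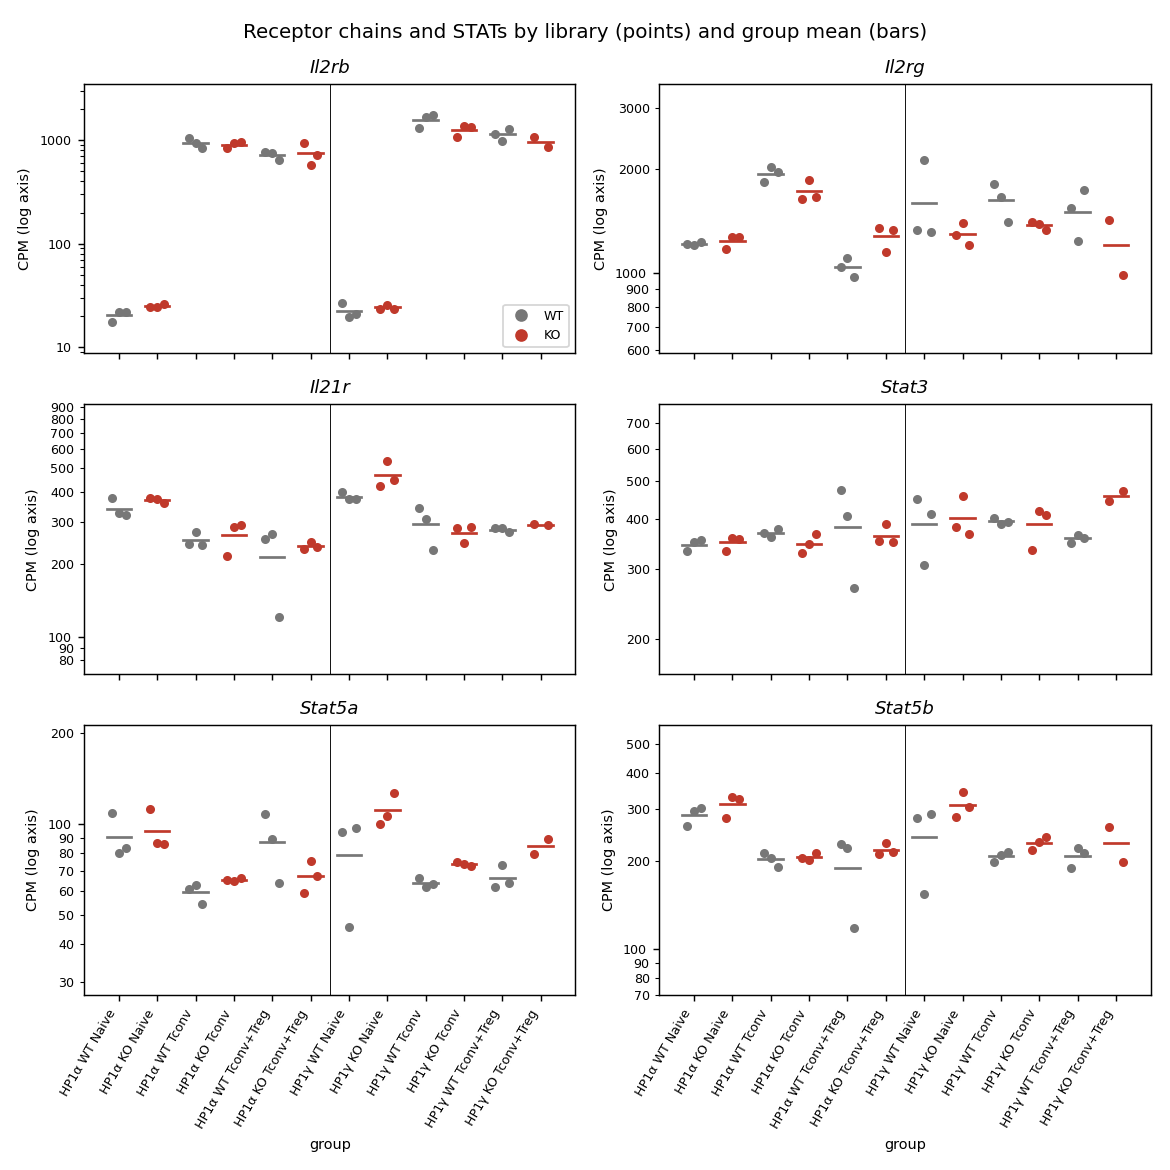
CPM on a log axis of the receptor chains Il2rb, Il2rg and Il21r and of Stat3, Stat5a and Stat5b in each library (points; grey WT, red KO) with group means (bars), for the 12 groups, HP1α line left of the line and HP1γ line right of it. Il2rb lies between 17.5 and 26.6 CPM in naive libraries and between 570 and 1751 CPM in the Tconv libraries with and without Treg, while Il2rg stays between 975 and 2124 CPM and Stat3 between 269 and 473 CPM.

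In HP1α WT cells 3 members were called, where 23.1% of all genes tested were called. The count was 3 in HP1α KO cells (19.7% of all genes), 4 in HP1γ WT cells (23.5%) and 3 in HP1γ KO cells (23.1%), and the called members were higher in Tconv in each case. At this background, the count of 3 or 4 of 10 is no result about the members. Divided by the length of the canonical transcript, so that genes can be compared, the mean level of Cish went from 4.52 CPM per kb in HP1α WT naive cells, below all other members but Socs2, to 113 in HP1α WT Tconv, where only Il2rg (1160) and Il2rb (225) were higher.

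The other genes of the pathway, 57 in all, were other receptor chains, cytokines, JAK kinases and further STATs, other negative regulators, and known STAT3 and STAT5 targets. In HP1α WT cells 17 of the 54 tested were called higher and 5 lower in Tconv, in HP1α KO cells 17 and 4 of 54, in HP1γ WT cells 22 and 3 of 56, and in HP1γ KO cells 19 and 6 of 56. The median log2 fold change of these genes was between 0.31 and 0.47 in the 4 comparisons, and that of all genes tested between -0.04 and 0.02. Il12rb1 and Il12rb2, the chains of the IL-12 receptor of T helper 1 cells, were called in every comparison. The log2 fold change of Il12rb1 was 5.64 ± 0.22 in HP1α WT cells. Il2ra, the α chain that raises the affinity of the IL-2 receptor, rose by 3.70 ± 0.13 in HP1α WT cells and Il2 itself by 4.58 ± 0.24. Il9r and Il4 in HP1α KO and HP1γ WT cells and Il21 and Il10 in HP1γ KO cells were also called, and no fold is given for these 4 genes because each was at 0.0910 CPM or less in every naive library, Il9r being at 0 in all 3 of HP1γ WT. Il12rb2, at 0.0913 to 0.239 CPM in HP1α WT naive cells, rests on few naive counts too, and its fold is not given either. Of the other negative regulators, 1 of 12 was called higher in each comparison, namely Pias3, an inhibitor of STAT3, at 1.37 ± 0.16 in HP1α WT cells, and Ptpn6, a phosphatase of receptors and JAKs, was called lower in HP1γ KO cells (-1.03 ± 0.13). The choice of Pias3 and Ptpn6 was made with their values known.

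When Treg had been co-injected, Cish and Socs2 were lower in HP1α WT Tconv, while the STATs, Socs1 and Socs3 did not pass the test. Cish was 66.7, 78.4 and 70.4 CPM in HP1α WT Tconv with Treg against 366, 477 and 395 CPM without, so the groups were far apart. The level was 5.59-fold lower (log2 fold change -2.48 ± 0.16, edgeR adjusted p = 5.2e-04). Socs2 was 11.7, 27.8 and 26.4 CPM with Treg against 143, 113 and 140 CPM without. It was 5.85-fold lower (-2.55 ± 0.33, edgeR adjusted p = 0.00584), without overlap. These were 2 of the 10 members, in a comparison where 5.96% of all genes were called. Groups without overlap were found for 5 members and for 34.8% of all genes.

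Il2rg had the next smallest adjusted p in that comparison, with 1039, 1104 and 975 CPM with Treg and 1832, 2032 and 1959 CPM without. Its difference of -0.86 ± 0.14 passed the p threshold (edgeR adjusted p = 0.0113) but not that on fold change, and without replicate 3 of HP1α WT Tconv the adjusted p was 0.073. Il2rb was 774, 760.3 and 648 CPM with Treg against 1060, 937 and 832 CPM without, a difference of -0.34 ± 0.16. Stat5a was on the other side, at 108, 89.4 and 63.8 CPM with Treg and 60.9, 63.0 and 54.2 CPM without (0.59 ± 0.20, edgeR adjusted p = 0.144). Replicate 3 of HP1α WT Tconv with Treg stood apart in this group. It held 121 CPM of Il21r against 254 and 268, 269 CPM of Stat3 against 473 and 408, and 118 CPM of Stat5b against 229 and 222. Without that library the same number of members, 2, was called, and its Cish value lay between those of the other replicates.

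In HP1α KO cells Cish and Socs2 were lower with Treg as well. Cish was 169, 168 and 169 CPM with Treg and 409.7, 396 and 417 CPM without, which is 2.38-fold lower (-1.25 ± 0.06, edgeR adjusted p = 7.49e-04). Socs2 was 38.9, 27.4 and 35.6 CPM with Treg and 132, 76.4 and 113 CPM without (3.11-fold lower, -1.64 ± 0.23, edgeR adjusted p = 0.0414). Leaving out any library but replicate 2 of HP1α KO Tconv ended the Socs2 call, with edgeR adjusted p from 0.0698 to 0.177. Socs3 was 364, 349 and 371 CPM with Treg and 242, 165 and 243 CPM without, and this difference of 0.76 ± 0.16 did not pass (edgeR adjusted p = 0.0894). The 2 called members stood against 0.44% of all genes.

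In the HP1γ line no member passed the test with against without Treg. Cish was 474, 323 and 488 CPM with Treg in HP1γ WT Tconv and 721, 654 and 393 CPM without, and the groups overlapped (-0.46 ± 0.25, edgeR adjusted p = 0.771). Socs2 was 135, 64.5 and 145 CPM with Treg and 148, 277 and 169 CPM without, a narrow gap without overlap (-0.79 ± 0.38, edgeR adjusted p = 0.755). In HP1γ KO cells, Cish was 174 and 105 CPM with Treg and 375, 299 and 275 CPM without (-1.18 ± 0.27, edgeR adjusted p = 0.503). Socs2 was 33.8 and 10.6 CPM against 108, 70.3 and 59.5 CPM (-1.84 ± 0.54, edgeR adjusted p = 0.54). The KO groups did not overlap for these genes, as for 24.4% of all genes (13.4% in WT cells). No member was called by edgeR in either genotype, and at an unadjusted p under 0.05 there were 2 in each (Il2rb and Socs1 in WT, Socs2 and Cish in KO cells). Of all genes, edgeR called 0.0126% in HP1γ WT cells and 0% in HP1γ KO cells, where 1294 genes had an unadjusted p under 0.05 and DESeq2 called 270. With DESeq2, Cish (adjusted p = 0.00609) and Socs2 (adjusted p = 0.0153) were called in HP1γ KO cells.

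**Figure D2:**
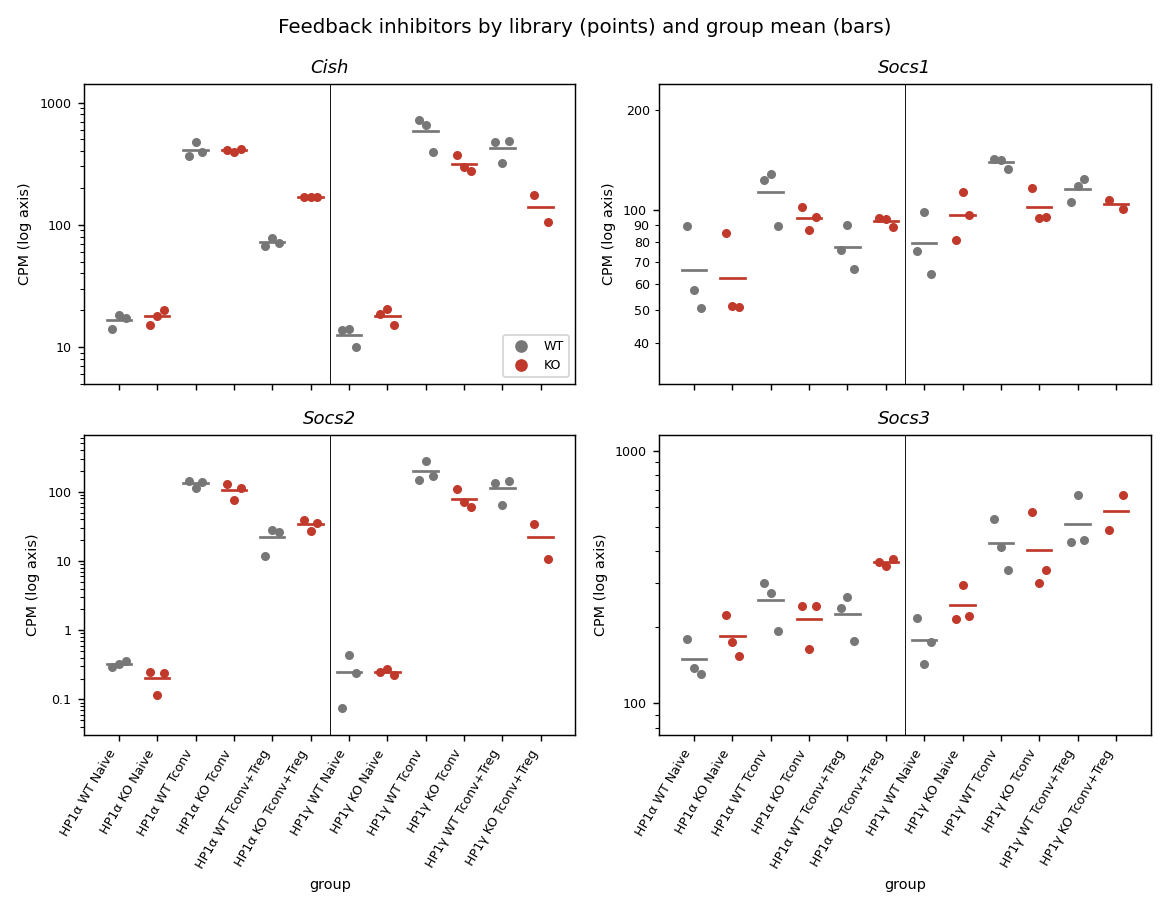
CPM on a log axis of Cish, Socs1, Socs2 and Socs3 in each library (points; grey WT, red KO) with group means (bars), for the 12 groups, HP1α line left of the line and HP1γ line right of it. With Treg, Cish lies at 66.7 to 78.4 CPM in HP1α WT and at 168 to 169 CPM in HP1α KO, while in the HP1γ line the WT libraries (323 to 488 CPM) lie above the KO libraries (105 and 174 CPM).

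The Treg effect on Cish in WT cells was more negative in the HP1α line than in the HP1γ line. A test of the difference itself gave -2.03 ± 0.31 on the log2 scale (edgeR adjusted p = 0.00948). It was the 1 member called there, beside 1.56% of all genes, and Socs2 had -1.77 ± 0.51 (edgeR adjusted p = 0.108). Of the other pathway genes 7 of 56 were called, 3 of them positive and 4 negative, among them Il21 (4.27 ± 0.70), Bcl6 (2.44 ± 0.48), Il7r (-2.32 ± 0.43) and Ifngr1 (-2.28 ± 0.31). The lines differ in the genotype of their controls, and the line and the experiment cannot be told apart. The study reports that, at the ratio of Tconv to Treg in its HP1γ experiment, Treg did not effectively repress the WT response. The part of this ratio in the difference was not tested.

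Markers of Treg differed in part with the Treg comparison. The summed level of Foxp3, Ikzf2, Il2ra, Ctla4 and Tnfrsf18, each at a group mean of 1 CPM or more, was 355 to 387 CPM in HP1α WT Tconv and 705 to 942 CPM with Treg, but 330 to 399 and 308 to 493 CPM in HP1α KO cells. It was 349 to 449 and 433 to 506 CPM in HP1γ WT cells, and 401 to 530 and 592 to 1200 CPM in HP1γ KO cells. In HP1α WT cells 3 of the 5 lay above without overlap and 2 below. Foxp3, the factor that defines Treg, was between 4.46 and 12.1 CPM in HP1α WT Tconv and between 13.3 and 68.7 CPM with Treg, and Ikzf2 and Ctla4 were called higher. Il2ra, also a gene of the pathway, was between 39.5 and 42.2 CPM without and between 10.6 and 27.6 CPM with Treg, and Tnfrsf18 between 217 and 258 CPM without and between 206 and 213 CPM with Treg, and neither was called. The injected Treg carried a Thy1.1 reporter that the sort selected against. The 10 myeloid markers summed to 7.5 to 12.3 CPM in HP1α WT Tconv, 74.5 to 88.5 CPM in HP1α WT Tconv with Treg and 195 to 527 CPM in HP1α KO Tconv with Treg, and the 6 erythroid markers to 1.31 to 2.66, 1.68 to 29.1 and 74.5 to 445 CPM in these groups. HP1α KO Tconv without Treg had 15.1 to 162 CPM of the myeloid and 17.3 to 490 CPM of the erythroid markers. In the HP1γ line the myeloid sum was 28.1 to 334 CPM in WT and 97.8 to 139 CPM in KO Tconv, and 111 to 130 CPM in WT and 148 to 304 CPM in KO Tconv with Treg. The erythroid sum there ran from 49.6 to 4220 CPM over the Tconv libraries. A single myeloid marker was at 0 in all libraries of HP1α WT Tconv, 1 in those of HP1α WT Tconv with Treg, and 2 in those of HP1γ KO Tconv with Treg. The part of these cells in the differences of Cish and Socs2 was not tested.

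Around the members, 12 of 55 other pathway genes were called in HP1α WT cells with Treg, 4 higher and 8 lower. Of all genes, 5.96% were called in that comparison, 0.44% in HP1α KO, 0.0126% in HP1γ WT and 0% in HP1γ KO cells. Il21, the cytokine that acts through Il21r, rose by 5.98 ± 0.59 (edgeR adjusted p = 0.00212), Il10 by 5.38 ± 0.87 and Bcl6, the factor of follicular helper cells, by 2.57 ± 0.43. Ifngr1, a chain of the interferon γ receptor, fell by 2.38 ± 0.23 on the log2 scale (edgeR adjusted p = 0.00199). In the list of STAT3 and STAT5 targets, Bcl2l1, Myc, Ccnd3 and Osm fell and Bcl6 rose among 12, the first 4 of them named with their values known, and none of the 8 JAK kinases and other STATs was called. In HP1α KO cells 1 of 56 was called, the STAT5 target Osm, which fell by 1.11 ± 0.13 on the log2 scale, and in the HP1γ line none of 56 in either genotype. The medians of the list were -0.09 and -0.04 in HP1α WT and KO cells, beside 0.03 and 0.02 for all genes tested.

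The comparison of KO with WT cells gives the differences in level between the genotypes of each line. In naive cells no member was called in either line. The differences lay between -0.68 ± 0.44 (Socs2) and 0.31 ± 0.19 (Socs3) in the HP1α line, where 0% of all genes were called, and between -0.26 ± 0.20 (Il2rg) and 0.55 ± 0.19 (Cish) in the HP1γ line, where 0.00669% were. At an unadjusted p under 0.05 there was 1 member in each line (Il2rb and Cish), and DESeq2 called none. In the HP1α line, 291 genes had an unadjusted p under 0.05, DESeq2 called 15, and the fit with the replicate number as a block called 12, none a member. Cish in naive cells was 14 to 18.1 CPM in HP1α WT and 15.2 to 20.1 CPM in HP1α KO, which overlapped, and 13.7, 14.1 and 9.91 CPM in HP1γ WT against 18.7, 20.4 and 15.1 CPM in HP1γ KO. The HP1γ groups did not overlap, as for 3 members and 16.8% of all genes, with an adjusted p of 0.63 in edgeR's test.

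In Tconv without Treg, HP1α KO and WT cells had nearly the same Cish level (-0.01 ± 0.10), and all 10 members lay between -0.29 ± 0.21 (Socs2) and 0.15 ± 0.08 (Stat5a). No member was called by edgeR or DESeq2 or had an unadjusted p under 0.05, beside 0.103% of all genes called. In the HP1γ line Socs2 was 108, 70.3 and 59.5 CPM in KO Tconv and 148, 277 and 169 CPM in WT Tconv. The KO and WT libraries did not overlap for 6 members, with KO below for Cish, Socs2, Socs1 and Il2rg and above for Stat5a and Stat5b, while 13.9% of all genes did not overlap. Cish, Socs2 and Socs1 were at -0.88 ± 0.23 (edgeR adjusted p = 0.323), -1.30 ± 0.31 (edgeR adjusted p = 0.286) and -0.42 ± 0.10 (edgeR adjusted p = 0.26). No member was called, beside 0.0437% of all genes, and 4 had an unadjusted p under 0.05 (these and Stat5a), as had 1349 of all genes. With the replicate number as a block, which raised the genes called from 7 to 74, no member was called either. Socs2 was called there by DESeq2 (-1.32, adjusted p = 4.15e-04).

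Among Tconv exposed to Treg, Cish was the member that differed between HP1α KO and WT cells. The KO libraries had 169, 168 and 169 CPM and the WT libraries 66.7, 78.4 and 70.4 CPM, which is 2.31-fold higher in the KO (1.21 ± 0.14, edgeR adjusted p = 0.0328). No other member was called, and 0.123% of all genes were. Socs3, at 364, 349 and 371 CPM in the KO and 237, 263 and 176 CPM in the WT libraries, did not overlap between genotypes (0.66 ± 0.18, edgeR adjusted p = 0.203), and neither did Il2rg, at 1347, 1150 and 1334 CPM against 1039, 1104 and 975 CPM (0.28 ± 0.15, edgeR adjusted p = 0.5). With Cish these are 3 of 10 members without overlap, beside 21.5% of all genes. Socs2 had 0.61 ± 0.34 with overlap. The myeloid, erythroid and Treg marker sums given above also differed between these genotypes. The 5 T cell markers summed to 4950 to 5710 CPM in the KO and to 6140 to 6640 CPM in the WT libraries. The part of these markers in the result was not tested. The values of Cish stayed between 1.16 and 1.27 on the log2 scale with any library left out, but leaving out any of them except replicate 3 of HP1α WT Tconv with Treg ended its call, with edgeR adjusted p from 0.0786 to 0.216. Without that replicate the adjusted p was 0.0169 in edgeR's test. With the replicate number as a block, Cish was not called (edgeR adjusted p = 0.101).

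The Treg effect on Cish differed between the genotypes of the HP1α line, by 1.23 ± 0.16 (edgeR adjusted p = 0.0119) in a test of the interaction of genotype and Treg. The log2 change with Treg was -2.48 in WT and -1.25 in KO cells. Cish was the 1 member called, beside 0.139% of all genes. Socs3 (0.90 ± 0.29, edgeR adjusted p = 0.279) and Socs2 (0.92 ± 0.42, edgeR adjusted p = 0.513) were not. Leaving out replicate 2 or 3 of HP1α KO Tconv raised the adjusted p of Cish to 0.0656 and 0.0544. These comparisons share the HP1α WT Tconv with Treg libraries with the comparisons above and are not independent of them.

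**Figure D3:**
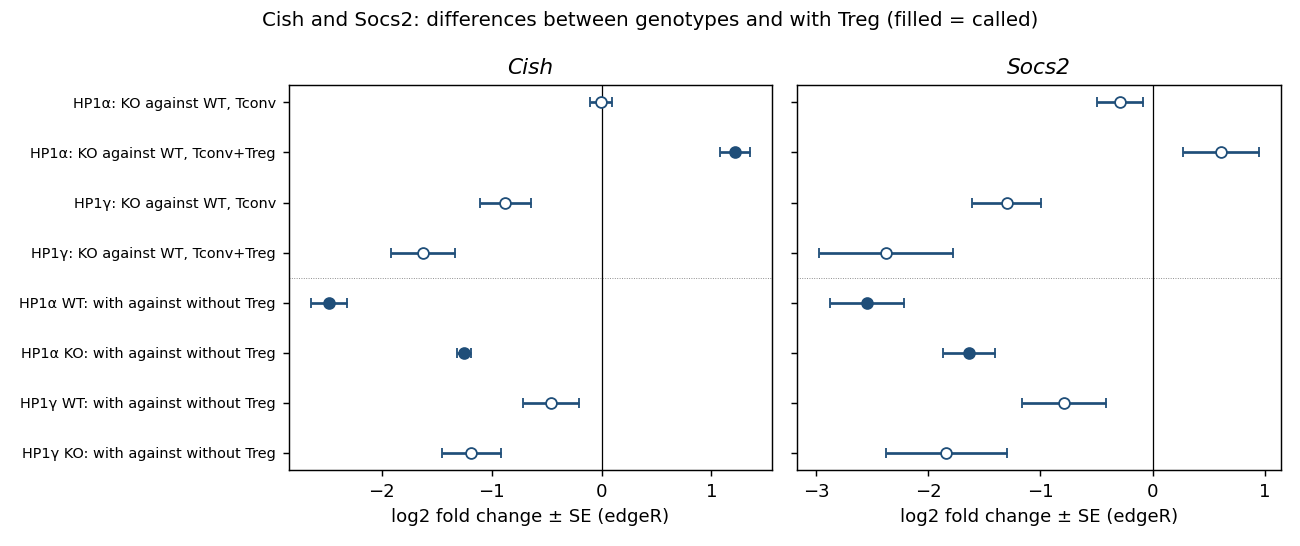
Log2 fold change ± SE of Cish (left) and Socs2 (right) from edgeR for KO against WT (upper 4 rows) and with against without Treg (lower 4 rows), filled where called. Cish is at 1.21 for HP1α KO against WT with Treg and at -1.62 for HP1γ KO against WT with Treg, and each Treg effect lies below 0.

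In the HP1γ line Cish and Socs2 were lower in each KO library with Treg than in the WT libraries, without passing the test. Cish was 174 and 105 CPM in HP1γ KO Tconv with Treg and 474, 323 and 488 CPM in the WT libraries, without overlap, which is 3.08-fold lower (-1.62 ± 0.29, edgeR adjusted p = 0.188). Socs2 was 33.8 and 10.6 CPM in the KO and 135, 64.5 and 145 CPM in the WT libraries (-2.37 ± 0.60, edgeR adjusted p = 0.234). Neither passed, in a comparison with 2 KO libraries where 0% of all genes were called by edgeR, 2028 genes had an unadjusted p under 0.05 and DESeq2 called 628. Of the members, 4 had an unadjusted p under 0.05 (Stat3, Stat5a, Socs2 and Cish). Without replicate 2 of HP1γ KO Tconv with Treg, Cish was called (-2.06, edgeR adjusted p = 0.0428), with a single KO library assumed to vary like the WT libraries. Cish and Socs2 were both called by DESeq2, with adjusted p of 8.3e-06 and 2.18e-04, and in the fit of all libraries of the line, with 0.0124 and 0.0297. Groups without overlap were found for 5 members, with KO below for Cish and Socs2 and above for Il21r, Stat3 and Stat5a, and for 29.4% of all genes. Stat3 was 445 and 472 CPM in the KO and 349, 367 and 360 CPM in the WT libraries (0.35 ± 0.12, edgeR adjusted p = 0.324). The Treg markers summed to 592 and 1200 CPM in these KO libraries and to 433 to 506 CPM in WT, the 8 B cell markers to 24.4 and 26.3 against 4.14 to 15.4 CPM, and all 5 T cell markers lay above WT without overlap. Their part in the differences was not tested. The Treg effect did not pass between HP1γ genotypes in the test for any member, with -0.75 ± 0.40 for Cish. By edgeR 0% of all genes were called, no member and 667 genes had an unadjusted p under 0.05, and DESeq2 called 15 genes, none of them a member.

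None of the other pathway genes was called between KO and WT cells by edgeR in any of the 6 comparisons, where 0% to 0.123% of all genes were. At this share the absence of calls is no result about these genes. With Treg, their median log2 fold change was 0.17 in the HP1α line and -0.11 in the HP1γ line, beside -0.01 and 0.01 for all genes tested.

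The difference between the lines was itself tested. The KO effect on Cish in Tconv with Treg was more positive in the HP1α line than in the HP1γ line by 2.84 ± 0.31 on the log2 scale (edgeR adjusted p = 0.0053), and Cish was the 1 member called, beside 2.72% of all genes. Socs2 followed with 2.98 ± 0.70, just outside the threshold (edgeR adjusted p = 0.0506). The other members lay between -0.73 ± 0.27 (Stat5a) and 0.61 ± 0.26 (Il2rg). Of the 56 other pathway genes tested, 8 were called, 4 in each direction, among them Il7r (3.68 ± 0.63), the receptor of IL-7, Il10 (-7.50 ± 1.47), Il21 (-5.66 ± 0.90) and Bcl6 (-2.64 ± 0.58). With the left-out HP1γ KO library put back, the Cish difference was 2.67 with an adjusted p of 0.0573, and no member was called. In that library Il2rb was at 17450 CPM and Stat3 at 11190 CPM, far above each of the 35 others.

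**Figure D4:**
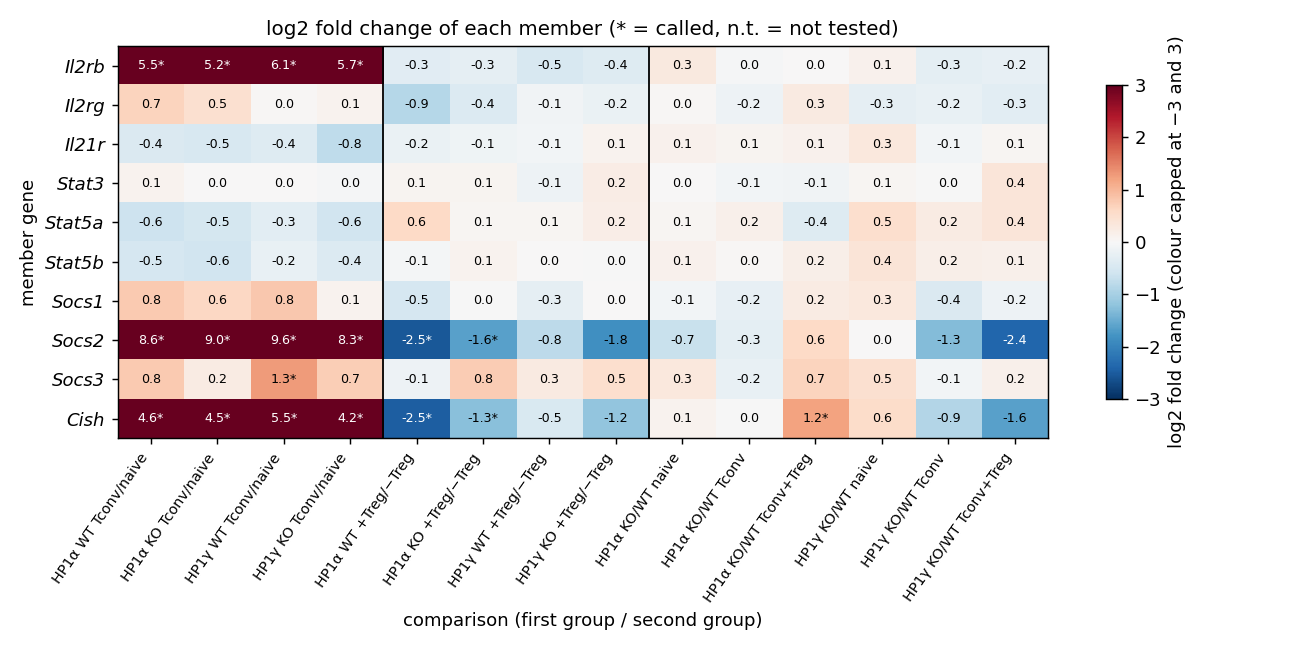
Log2 fold change of the 10 members (rows) in 14 comparisons (columns: Tconv against naive, with against without Treg, KO against WT), with the colour capped at -3 and 3 and an asterisk on called values. Il2rb, Socs2 and Cish are called in the first 4 columns, and Socs2 and Cish carry the largest values of the remaining columns. In HP1α KO and HP1γ WT cells, Socs2 entered the test of Tconv against naive cells only through Tconv.

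Over the 12 group means of log2(CPM + 0.5), Cish and Socs2 had the most similar patterns of all 45 pairs of members (Pearson r = 0.99, Spearman rho = 0.94), followed by Il2rb with Socs2 (Pearson r = 0.97, Spearman rho = 0.82) and Il2rb with Cish (Pearson r = 0.95, Spearman rho = 0.89). The lowest Spearman value was that of Stat5a with Socs2 (rho = -0.93). These values are a description of 12 points dominated by the step from naive cells to Tconv and drawn from shared libraries. Of 11726 genes compared, the most like Cish were Slc39a6, Septin11 and Il1rl1 (Pearson r = 0.99 or above), and the most like Socs2 were Ifitm2, Plac8 and Ccr2 (each r = 0.995, rounded to 3 decimals). For Socs3 they were Psd (0.98), Odc1 (0.98) and Fam83d (0.96), and for Socs1 Hspa5, Pim1 and Tmem115 (0.94 each).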

How the data were processed

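RNA had been amplified with the SMART-Seq kit, and the reads were processed by the authors with the nf-core/rnaseq pipeline, with alignment by STAR to GRCm39 and quantification by Salmon, per the labels and the methods of the study. The deposited values were estimated counts per gene, not scaled to library size. Estimated counts were rounded to whole numbers and tested with edgeR 4.0.16 (robust quasi-likelihood test, TMM normalisation, filterByExpr with a minimum count of 10, R 4.3.3), with the libraries of the groups compared only, and Benjamini-Hochberg adjustment over all genes tested. DESeq2 1.42.0, the tool of the study, was an alternative, as were RLE factors, every gene kept whatever its counts, the p threshold alone, a fit of all libraries of a line, a replicate block, the left-out library, and leaving out each library.

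The members, the lists and the tests were chosen with earlier results of these data known. All 10 members were named. Of the other pathway genes, the rule named, in each comparison, up to 4 called genes with the largest change and a mean of at least 5 CPM, and a few others were named after their values were seen, as said beside them. For the 4 SOCS family genes, the 3 genes with the highest Pearson correlation over the 12 group means were named, among genes with a group mean of 1 CPM or more, without predicted genes, clones, pseudogenes and receptor segments. Groups came from the sample titles. Among the 34 pairs of replicates 0 were identical, and the labels do not say that replicates came from separate hosts, so p-values measure the spread between these samples. Samples with the same replicate number deviated together (correlation above 0.1 in all 3 pairs) in HP1α KO against WT naive cells (0.29 to 0.65) and HP1γ KO against WT Tconv (0.11 to 0.43), and by this criterion not in the other comparisons, those with HP1γ KO Tconv with Treg having 2 full pairs. The number of libraries, 2 or 3 a group, limits the precision. The depth was at least 37029519 counts, but genes near the floor, such as Socs2 in naive cells, rest on few counts as well. The summed level of the naive T cell markers is not reported here.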

Additional observations from a re-analysis of the deposited data

Results flagged for a closer look

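The differences of effects that passed the test among the members were all of Cish. The change with Treg differed between HP1α KO and WT Tconv by 1.23 on the log2 scale, with every KO library at 168 to 169 CPM and every WT library at 66.7 to 78.4 CPM with Treg. The KO effect in Tconv with Treg differed between the HP1α and HP1γ lines by 2.84. Cish was higher in HP1α KO than in WT cells, a call that ended with the replicate block (edgeR adjusted p = 0.101). In HP1γ KO cells Cish was lower than in WT cells without passing the test (edgeR adjusted p = 0.188). That difference was called by DESeq2 (adjusted p = 8.3e-06) and in the fit of all libraries of the line (edgeR adjusted p = 0.0124). With the left-out HP1γ KO library put back, the difference between lines did not pass (edgeR adjusted p = 0.0573). The change with Treg differed between WT cells of the HP1α and HP1γ lines by -2.03. These differences share the HP1α WT Tconv with Treg libraries, in which the summed level of the 5 Treg markers was 705 to 942 CPM. The line cannot be told apart from the experiment or from its ratio of Tconv to Treg.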

How the results depend on the processing

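The number of members called changed as follows. With the replicate block, it was 0 in place of 1 for HP1α KO against WT Tconv with Treg (Cish, adjusted p = 0.101), 1 in place of 0 for HP1γ KO against WT Tconv with Treg, and 2 in place of 1 for the difference of the KO effect between lines, and it changed no other call. In the HP1α comparison the numbers did not pair the samples, in the HP1γ comparison there were 2 full pairs (correlations 0.197 and 0.38), too few for the criterion, and for the difference between lines pairing was not checked. DESeq2 called 1 member for HP1γ KO against WT Tconv and 2 for that comparison with Treg, 2 for HP1γ KO Tconv with against without Treg, 2 for the difference of the KO effect between lines and 2 for that of the Treg effect in WT cells. In the fit of all libraries of a line or of both lines, the count was 2 for HP1γ KO against WT Tconv with Treg and 2 for the difference of the KO effect, which was also 2 with RLE factors and 0 with the left-out library put back. With no filter on low counts it was 1 for HP1α KO Tconv with against without Treg. On the p threshold alone, it was 9, 7 and 7 for Tconv against naive cells in HP1α WT, HP1α KO and HP1γ KO, 5 in place of 4 in HP1γ WT, and 3 in place of 2 for HP1α WT with against without Treg.

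Leaving out 1 library at a time, the count ranged from 0 to 1 for HP1α KO against WT and for HP1γ KO against WT Tconv with Treg and for genotype and Treg in the HP1α line, from 1 to 2 for HP1α KO Tconv with against without Treg and for the difference of the KO effect between lines, and from 3 to 4 for HP1α WT Tconv against naive cells. It was constant in the other comparisons. Over single members and settings, 2231 results kept their side of the threshold and their direction, 34 passed only under the alternative, 15 no longer passed, and 120 uncalled values changed sign. The values that changed sign reached up to 3.62 in size on the log2 scale under the alternative. Counts over all genes moved more: for HP1α KO against WT Tconv with Treg the 20 genes called became 0 to 115 with 1 library left out, and 713 with DESeq2, 177 with no filter and 5 with the block. In HP1α WT cells with against without Treg, 932 became 306 to 1450, and in HP1α KO cells 71 became 4 to 58. DESeq2 called 15, 207, 38, 264 and 628 genes in the other KO comparisons (HP1α naive and Tconv, HP1γ naive, Tconv and Tconv with Treg), where edgeR called 0, 16, 1, 7 and 0, and 1447 against 506 for the difference of the KO effect between lines. RLE moved the median of all genes by 0.0301 at most. The causes were not tested.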
